A study of Mus musculus with 4 samples.

Results

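In RNA from sorted mouse B cell precursors, 10 genes of erythroblast island macrophages were followed. Erythroblast islands are the marrow niches in which red cells mature, with a macrophage at the centre. The genes were Cd163, Vcam1, C1qa, C1qb, C1qc, Hmox1, Spic, Slc40a1, Adgre1 and Mrc1. They were taken by symbol as a list of genes of iron-recycling marrow macrophages, and all 10 were found among the 55573 Ensembl identifiers of the files. KO 1 and KO 2, from C57BL/6 mice with the genotype label ADAR1 KO, were set against WT 1 and WT 2, from wild type C57BL/6 mice. All 4 libraries came from bone marrow cells sorted as Fr.C+C' B cells, a gate that holds B cell precursors around the pro-B to pre-B transition, of mice 8 to 12 weeks old. No treatment is labelled. The allele of ADAR1 (gene symbol Adar), a promoter or Cre that limits its loss to a cell type, and the number of mice behind each library are not in the labels. The spread that the p-values rest on may therefore be technical only.

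Island macrophages touch maturing erythroblasts, engulf their expelled nuclei and take apart aged red cells. Haemoglobin bound to haptoglobin enters through the receptor CD163, the enzyme HMOX1 opens the heme ring and frees its iron, and the exporter ferroportin, encoded by Slc40a1, returns iron to the blood. The transcription factor SpiC is needed in mice for iron-recycling macrophages of the spleen and marrow. VCAM1 binds the integrin on erythroblasts. None of these genes defines a B cell precursor, so in a B cell sort their transcripts may come from other cells as well as from the sorted ones.

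The libraries held between 15117158 and 16412007 estimated fragments assigned to genes. B-lineage markers were present in every library, with summed levels over 15 genes of 2149 and 1373 FPKM in KO 1 and KO 2, against 2564 and 2600 FPKM in WT 1 and WT 2. The lowest p-values among them belonged to Cd79a, a signalling chain of the B cell receptor, and the surface protein gene Cd24a (log2 changes -1.66 and -0.72, adjusted p = 0.295 and 0.370, limma). FPKM are fragments scaled to exon length and to the size of the library. Neutrophil markers were also abundant, with 16 genes that held 11.3% and 21.4% of all FPKM in KO 1 and KO 2, against 8.51% and 8.24% in WT 1 and WT 2. Adar stood at 15.19 and 16.79 FPKM in KO 1 and KO 2, against 15.04 and 14.62 FPKM in WT 1 and WT 2, so its level over the whole gene does not check the knockout label. KO and WT below are the libraries so labelled.

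All 10 macrophage genes were detected in every library, at 1.3 FPKM or more, and all 10 passed the filter on low values (a group mean of 1 FPKM or more). The genes shared their highest and lowest libraries. WT 1 was the highest library and KO 1 the lowest for all 10, an arrangement found in 6.28% of the 13281 genes tested. For 7 of them (Vcam1, C1qa, C1qb, C1qc, Slc40a1, Adgre1 and Mrc1) KO 2 stood above WT 2, so that the groups overlapped (this order was found in 2.18% of genes tested). For Cd163, Hmox1 and Spic both KO libraries lay below both WT libraries, in the order WT 1, WT 2, KO 2 and KO 1 from high to low (3.78% of genes tested). In any order, 31.7% of genes tested had both KO libraries below both WT libraries, so 3 of 10 is near the background share. For 0 of the 10 genes did both KO libraries lie above both WT libraries, against 19.7% of genes tested.

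**Figure D1:**
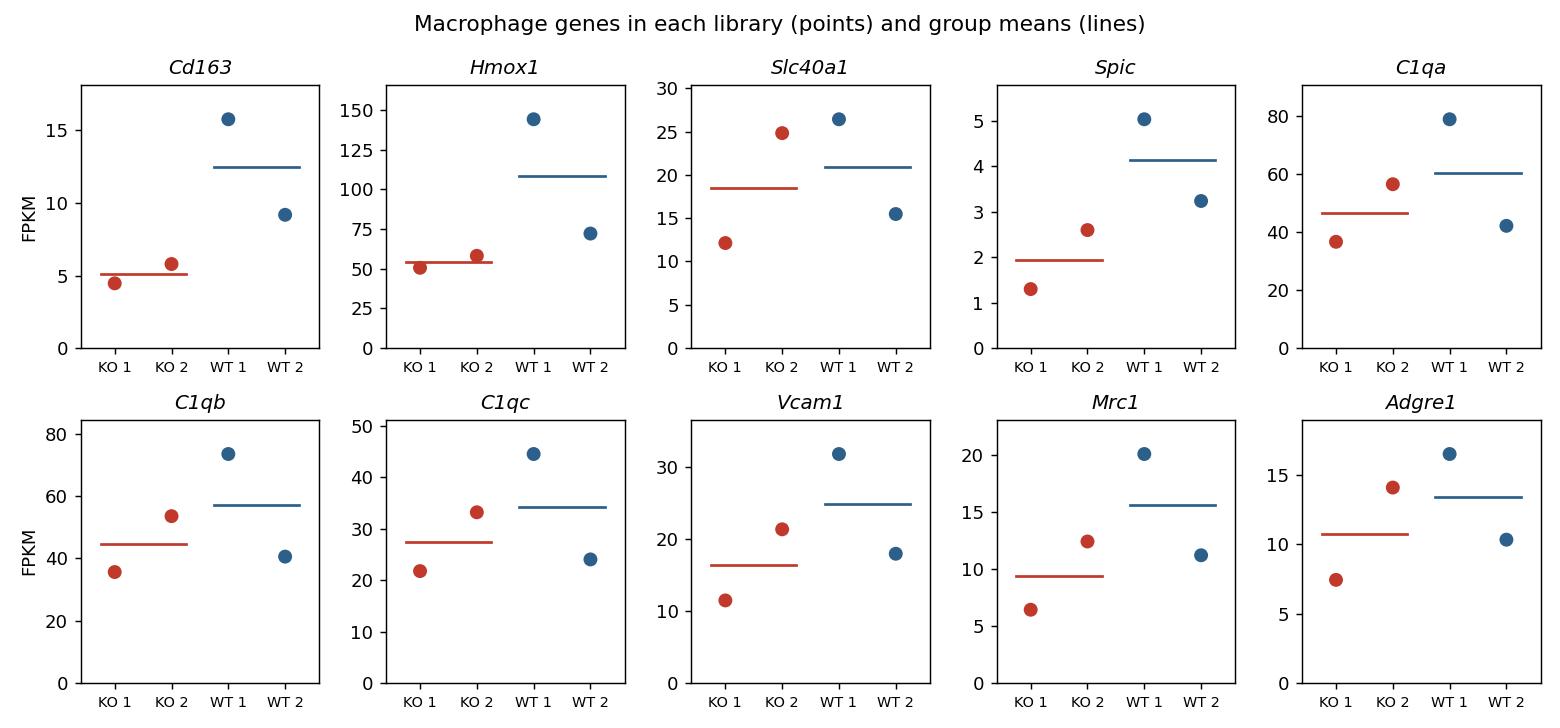
FPKM (vertical axes, from 0) of the 10 macrophage genes in KO 1, KO 2, WT 1 and WT 2, with points for libraries and lines for group means. WT 1 is the highest and KO 1 the lowest point in every panel, and only Cd163, Hmox1 and Spic have both KO points below both WT points.

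No macrophage gene passed the test between the groups. In limma on log2(FPKM + 1), 0 of 10 had a Benjamini-Hochberg adjusted p under 0.05 in either direction, where 0.203% of all genes tested passed as lower and 0% as higher in KO. At an unadjusted p under 0.05 there were 3 of 10 (Cd163, Hmox1 and Spic), against 12.5% of all genes. Voom on estimated fragments also called 0 of 10, with 3 at an unadjusted p under 0.05. With median centring, quantile normalization or no filter on low values, limma left 1 of 10 (Cd163) at an unadjusted p under 0.05. The log2 change was below 0 for 10 of 10, as for 61.7% of all genes, with a median of -0.46 for the 10 genes and -0.09 for all genes tested. The sum over the 10 genes was 187.9 and 282.5 FPKM in KO 1 and KO 2, against 456.9 and 246.3 FPKM in WT 1 and WT 2. Its means were 235.2 ± 66.9 FPKM in KO and 351.6 ± 149 FPKM in WT (SD, n = 2 each), a log2 ratio of -0.58. That ratio was -0.07 without WT 1, -0.32 without KO 1, -0.90 without KO 2 and -0.96 without WT 2. The smallest p that an exact permutation of 2 against 2 libraries allows is 0.333, so the sum was not tested. In bulk RNA, fewer cells of a type and less RNA per cell cannot be told apart.

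**Figure D2:**
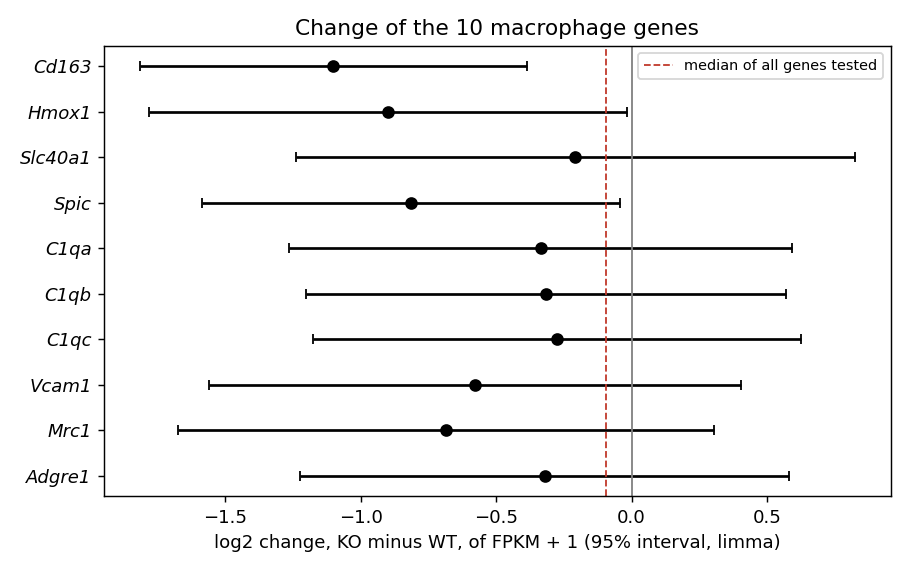
Log2 change of FPKM + 1, KO minus WT, for each macrophage gene (points) with its 95% interval from limma (bars); the dashed line is the median of all genes tested, -0.09. All 10 points lie left of 0, from -1.10 for Cd163 to -0.21 for Slc40a1, and the intervals of Cd163, Hmox1 and Spic leave out 0 before adjustment over all genes.

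Cd163, the scavenger receptor for haptoglobin-bound haemoglobin, had the lowest log2 change of the list. It stood at 4.46 and 5.79 FPKM in KO 1 and KO 2, against 15.76 and 9.18 FPKM in WT 1 and WT 2, so that the groups did not overlap. The means were 5.13 ± 0.94 FPKM in KO and 12.5 ± 4.65 FPKM in WT (SD, n = 2 each), a 2.43-fold lower mean in KO. The log2 change was -1.10 ± 0.28 (SE), its 95% interval ran from -1.81 to -0.39, and limma gave it an adjusted p of 0.342. These values rest on about 386 to 1360 fragments a library. Cd163 (ENSMUSG00000008845) lies on chromosome 6, 124304656 to 124330527, plus strand, of GRCm38. The ligand's partner in plasma, haptoglobin (Hp), is also made by neutrophil precursors, and it stood at 399.1 and 711.3 FPKM in KO 1 and KO 2, against 226.5 and 216.1 FPKM in WT 1 and WT 2 (adjusted p = 0.337, limma).

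Hmox1, heme oxygenase 1, had the highest FPKM of the 10 genes in every library and is made by many stressed cell types as well as macrophages. It stood at 50.62 and 58.16 FPKM in KO 1 and KO 2, against 144.20 and 72.18 FPKM in WT 1 and WT 2. WT 1 stood at 2 times WT 2, a wider gap than that between the KO libraries, and the groups did not overlap. The log2 change was -0.90 ± 0.34 (SE, adjusted p = 0.395, limma), with a 1.99-fold lower mean in KO. The log2 change was -0.41 without WT 1 and -1.39 without WT 2. Hmox1 (ENSMUSG00000005413) lies on chromosome 8, 75093621 to 75100589.

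Slc40a1 encodes ferroportin, the iron exporter. It stood at 12.13 and 24.82 FPKM in KO 1 and KO 2, against 26.42 and 15.48 FPKM in WT 1 and WT 2, so the libraries interleaved. Its log2 change of -0.21 ± 0.40 (SE, 95% interval -1.24 to 0.82, adjusted p = 0.805, limma) was the smallest of the 10, and turned to 0.28 without KO 1 and 0.16 without WT 1. The interval leaves room for changes of more than 1 log2 unit downward. Slc40a1 (ENSMUSG00000025993) lies on chromosome 1, 45908068 to 45926523.

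Spic, the SpiC transcription factor, had the lowest level of the 10 genes. It is related to PU.1 and is also made by some B cells, so it is not a marker of macrophages alone. It stood at 1.30 and 2.60 FPKM in KO 1 and KO 2, against 5.04 and 3.24 FPKM in WT 1 and WT 2. The groups did not overlap, and the mean was 2.12-fold lower in KO. The values rest on about 79 and 151 fragments in KO 1 and KO 2, against 306 and 204 in WT 1 and WT 2. The exact 95% Poisson intervals of KO 2 (2.20 to 3.05 FPKM) and WT 2 (2.81 to 3.71 FPKM), which cover counting error only, overlap. The log2 change was -0.81 ± 0.30 (SE, adjusted p = 0.389, limma), and it was -0.49 without KO 1. Spic (ENSMUSG00000004359) lies on chromosome 10, 88674772 to 88685015.

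The C1q chains were the tightest unit of the list. C1qa, C1qb and C1qc encode the chains of C1q, the recognition part of the complement C1 complex, which also coats dying cells for engulfment and is made chiefly by macrophages. They neighbour each other on the minus strand of chromosome 4, within 18675 bases (136880129 to 136898803). C1qa stood at 36.66 and 56.52 FPKM in KO 1 and KO 2, against 78.92 and 42.17 FPKM in WT 1 and WT 2. C1qb stood at 35.63 and 53.60 FPKM in KO 1 and KO 2, against 73.58 and 40.59 FPKM in WT 1 and WT 2. C1qc stood at 21.77 and 33.22 FPKM in KO 1 and KO 2, against 44.57 and 24.04 FPKM in WT 1 and WT 2. The ratio of C1qb to C1qa was 0.972 and 0.948 in KO 1 and KO 2, against 0.932 and 0.963 in WT 1 and WT 2. The ratio of C1qc to C1qa was 0.594 and 0.588 in KO 1 and KO 2, against 0.565 and 0.570 in WT 1 and WT 2. The chains kept nearly fixed proportions, while the level of C1qa in WT 1 was 1.87 times that in WT 2. Between groups the log2 changes were -0.34, -0.32 and -0.28 for C1qa, C1qb and C1qc (adjusted p = 0.663, 0.666 and 0.707, limma), and they were 0.11, 0.10 and 0.16 without WT 1.

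RefSeq promoter windows of 300 bases, from 250 before to 50 after the annotated start, matched 5 of the 10 genes (Cd163, C1qb, C1qc, Spic and Mrc1). The C1qb and C1qc windows are shown because these genes had nearly the same profile over the libraries, and the Cd163 and Spic windows because these genes had the lowest KO to WT ratio of the list once divided by C1q, as given further on. All are GRCm38.p6 and read 5′ to 3′ along the gene: chr4:136886151-136886450 (minus strand) for C1qb, chr4:136892865-136893164 (minus) for C1qc, chr6:124304401-124304700 (plus) for Cd163 and chr10:88682974-88683273 (minus) for Spic. The Spic window lies inside the gene span given above (88674772 to 88685015), so it does not cover the upstream end of that span. Capitals mark GAGGAA, the core of sites bound by PU.1 and its relatives, on either strand.
C1qb: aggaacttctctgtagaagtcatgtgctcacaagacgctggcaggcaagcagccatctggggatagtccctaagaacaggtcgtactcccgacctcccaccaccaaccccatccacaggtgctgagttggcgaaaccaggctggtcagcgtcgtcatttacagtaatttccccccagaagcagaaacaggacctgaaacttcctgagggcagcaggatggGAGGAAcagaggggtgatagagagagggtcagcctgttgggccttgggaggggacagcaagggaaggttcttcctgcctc
C1qc: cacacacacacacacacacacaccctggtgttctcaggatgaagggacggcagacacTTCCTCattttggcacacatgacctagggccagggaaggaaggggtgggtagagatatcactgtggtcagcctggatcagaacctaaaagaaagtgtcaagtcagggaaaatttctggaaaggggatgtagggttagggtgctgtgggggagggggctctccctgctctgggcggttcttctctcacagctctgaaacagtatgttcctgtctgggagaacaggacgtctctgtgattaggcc
Cd163: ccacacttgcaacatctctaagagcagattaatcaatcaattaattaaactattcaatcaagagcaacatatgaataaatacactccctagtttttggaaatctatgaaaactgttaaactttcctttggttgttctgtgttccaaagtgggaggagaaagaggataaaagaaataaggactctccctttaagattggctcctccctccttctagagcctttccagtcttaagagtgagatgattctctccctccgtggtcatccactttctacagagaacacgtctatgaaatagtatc
Spic: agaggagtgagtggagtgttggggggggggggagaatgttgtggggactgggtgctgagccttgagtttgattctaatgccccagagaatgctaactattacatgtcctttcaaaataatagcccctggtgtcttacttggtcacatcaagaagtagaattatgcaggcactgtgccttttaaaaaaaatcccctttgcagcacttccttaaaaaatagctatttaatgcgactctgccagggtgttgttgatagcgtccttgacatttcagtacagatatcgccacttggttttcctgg
GAGGAA was found once in the C1qb window, with its first base 30 bases before the start, and once in that of C1qc, on the opposite strand and 193 bases before the start. It was found 3 times in the Mrc1 window, and in neither the Cd163 nor the Spic window. Of 27025 promoter windows of this length 28.3% hold it. The antioxidant response core TGACNNNGC was found once in C1qb and in no other of these windows (12.5% of all windows hold it). The AP-1 and Maf core TGAGTCA (5.17% of windows) and the TATA box TATAAA (14.2%) had no match in the 5 windows. Both strands were searched, and these motifs were not seen to overlap within the windows.

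Vcam1, the adhesion molecule that holds erythroblasts and also marks marrow stroma and endothelium, stood at 11.44 and 21.31 FPKM in KO 1 and KO 2, against 31.76 and 17.92 FPKM in WT 1 and WT 2. Its log2 change was -0.58 ± 0.38 (SE, adjusted p = 0.529, limma), and it was -0.16 without KO 1, -0.18 without WT 1, -1.001 without KO 2 and -0.98 without WT 2. An antisense gene, Gm43109, overlaps its exons at 0.35 FPKM or less, and without stated strand the reads of the pair cannot be told apart. Among defining genes of stroma and endothelium, Pdgfra was at most 0.08, Lepr at most 0.28 and Emcn at most 0.11 FPKM, while Cxcl12 stood between 1.06 and 2.87, Stab2 between 0.76 and 1.94 and Eng between 10.44 and 13.35 FPKM. Cdh5, the cadherin of endothelial junctions, stood at 2.87 and 3.32 FPKM in KO 1 and KO 2, against 1.43 and 1.77 FPKM in WT 1 and WT 2 (log2 change 0.66, adjusted p = 0.345, limma). Pecam1, which blood cells also make, stood at 14.57 and 9.74 FPKM in KO 1 and KO 2, against 15.50 and 18 FPKM in WT 1 and WT 2. Endothelial markers, summed over 10 genes, stood at 33.1 and 29.2 FPKM in KO 1 and KO 2, against 34.7 and 33.0 FPKM in WT 1 and WT 2. Summed over 12 genes, stromal markers stood at 2.98 and 24.7 FPKM in KO 1 and KO 2, against 8.03 and 3.10 FPKM in WT 1 and WT 2, with no gene at 0 in all libraries. Most of the KO 2 value came from collagen and matrix genes, with Col1a1 at 0.40 and 9.91 FPKM in KO 1 and KO 2, against 0.84 and 0.34 FPKM in WT 1 and WT 2, and Col1a2 at 0.07 and 4.67 FPKM in KO 1 and KO 2, against 0.59 and 0.12 FPKM in WT 1 and WT 2. The part of stromal and endothelial transcripts in the Vcam1 and Mrc1 values was not tested.

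Mrc1, the mannose receptor CD206 of tissue macrophages and sinusoidal endothelium, stood at 6.42 and 12.41 FPKM in KO 1 and KO 2, against 20.09 and 11.20 FPKM in WT 1 and WT 2. Its log2 change was -0.69 ± 0.39 (SE, adjusted p = 0.485, limma), and it was -0.26 without KO 1, -0.29 without WT 1, -1.11 without KO 2 and -1.08 without WT 2. Adgre1, which encodes the F4/80 antigen of mouse macrophages and eosinophils, stood at 7.43 and 14.09 FPKM in KO 1 and KO 2, against 16.51 and 10.33 FPKM in WT 1 and WT 2. Its log2 change was -0.32 ± 0.35 (SE, adjusted p = 0.669, limma), and it was 0.10 without KO 1 and -0.01 without WT 1. Both genes interleaved between the groups in the same order as the C1q chains. Markers of eosinophils, basophils and mast cells, summed over 11 genes, stood at 230.7 and 257.9 FPKM in KO 1 and KO 2, against 274.7 and 219.3 FPKM in WT 1 and WT 2, with no gene at 0 in all libraries. Among them Ccr3, the eotaxin receptor, stood at 1.95 and 3.86 FPKM in KO 1 and KO 2, against 8.34 and 4.73 FPKM in WT 1 and WT 2 (adjusted p = 0.386, limma). Fcer1a, a chain of the IgE receptor of basophils and mast cells, stood at 4.11 and 4.11 FPKM in KO 1 and KO 2, against 2.66 and 3.23 FPKM in WT 1 and WT 2 (adjusted p = 0.433). The part of eosinophil transcripts in the Adgre1 values was not tested.

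The genes closest to C1qa in profile over the 4 libraries included another island macrophage marker. Likeness was the Euclidean distance between profiles of log2(FPKM + 1), each centred on its own mean, over all genes tested (median distance 0.932). C1qb (0.0452) and C1qc (0.0652) were the nearest of all 13280 other genes. The 5 nearest genes outside the list were Sdc3 (0.103), C1qtnf12 (0.115), Gm17545 (0.128), Pld3 (0.168) and Siglec1 (0.176), the last encoding CD169, a lectin of marrow macrophages. Siglec1 stood at 4.25 and 8.12 FPKM in KO 1 and KO 2, against 10.52 and 5.94 FPKM in WT 1 and WT 2. Among the remaining members the distance was 0.246 for Adgre1, 0.302 for Vcam1, 0.308 for Slc40a1 and 0.396 for Mrc1. It was larger for Spic (0.549), Hmox1 (0.639) and Cd163 (0.803).

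The genes were also set against C1q within each library. Dividing by the summed FPKM of the C1q chains cancels any factor that a gene shares with them in a library. These ratios were chosen after the values were seen and carry no test. The ratio for Cd163 was 0.0474 and 0.0404 in KO 1 and KO 2, against 0.0800 and 0.0860 in WT 1 and WT 2. For Spic it was 0.0138 and 0.0181 in KO 1 and KO 2, against 0.0256 and 0.0303 in WT 1 and WT 2. For Hmox1 it was 0.538 and 0.406 in KO 1 and KO 2, against 0.732 and 0.676 in WT 1 and WT 2. The KO libraries lay apart from and below the WT libraries for each, with the WT libraries close together although Hmox1 itself stood in WT 1 at 2 times its level in WT 2. The mean ratio in KO was 0.529 of that in WT for Cd163, 0.572 for Spic, 0.671 for Hmox1, 0.749 for Mrc1 and 0.822 for Vcam1, and these 5 of the 7 genes outside C1q had both KO libraries below both WT libraries. Of all genes tested, 3.13% had such a ratio to C1q, and 17.0% had both KO libraries above both WT libraries. C1q was highest in WT 1 and lowest in KO 1, so a gene level over the libraries has its highest ratio in KO 1. These shares therefore depend on the C1q profile and are no fair background for genes that share its extremes. The 5 genes are also those with the lowest log2 changes of FPKM, so the ratios are a second view of the same values and no separate support. The ratios of Adgre1 (0.0790 and 0.0983 in KO, against 0.0838 and 0.0967 in WT) and Slc40a1 (0.129 and 0.173 in KO, against 0.134 and 0.145 in WT) overlapped.

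**Figure D3:**
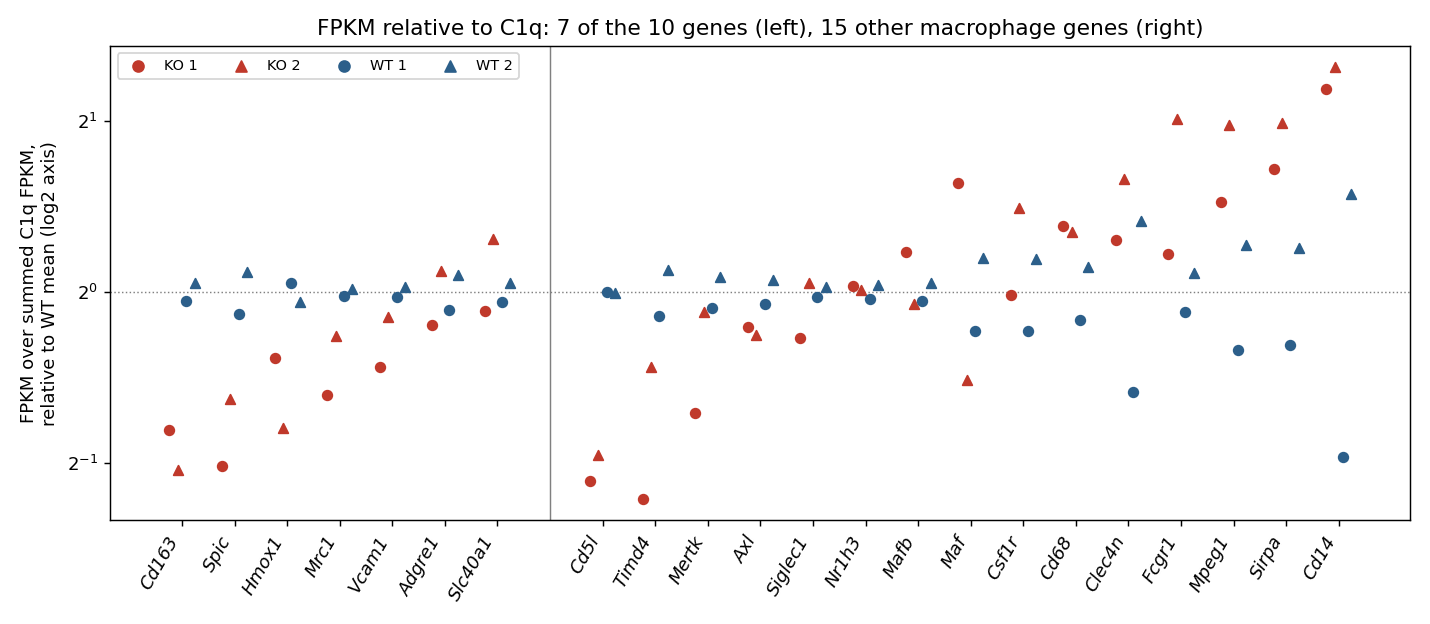
FPKM of each gene divided by the summed C1q FPKM of the same library, relative to the mean of WT 1 and WT 2 (log2 axis); circles are KO 1 and WT 1, triangles KO 2 and WT 2, red KO and blue WT. On the left, both KO points of Cd163, Spic, Hmox1, Mrc1 and Vcam1 lie below both WT points, and on the right Cd5l and Timd4 lie low and Sirpa and Cd14 high in KO.

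Other macrophage genes did not share 1 direction. Of 22 listed 15 were tested, 0 passed in either direction, and the median log2 change was -0.18. It was below 0 for 9 of the 15, a share near the 61.7% of all genes tested. Cd5l, a secreted macrophage protein, stood at 7.66 and 13.02 FPKM in KO 1 and KO 2, against 34.62 and 18.70 FPKM in WT 1 and WT 2 (log2 change -1.26, adjusted p = 0.350, limma). Timd4, a receptor for dying cells, stood at 0.96 and 2.50 FPKM in KO 1 and KO 2, against 4.22 and 2.75 FPKM in WT 1 and WT 2 (adjusted p = 0.440). Cd14, the endotoxin coreceptor that monocytes and neutrophils also make, stood at 11.74 and 19.55 FPKM in KO 1 and KO 2, against 5.55 and 8.72 FPKM in WT 1 and WT 2 (adjusted p = 0.367). Sirpa, an inhibitory receptor of myeloid cells, stood at 38.71 and 71.12 FPKM in KO 1 and KO 2, against 39.70 and 31.86 FPKM in WT 1 and WT 2 (adjusted p = 0.489). Relative to C1q, 4 of the 15 (Cd5l, Timd4, Mertk and Axl) had both KO libraries below both WT libraries and 5 (Cd68, Fcgr1, Mpeg1, Cd14 and Sirpa) had both above, beside 3.13% and 17.0% of all genes tested. Those shares depend on the C1q profile, as said above, so no conclusion is drawn from these counts. Monocyte markers, summed over 10 genes of which Csf1r and Cd14 are in both lists, stood at 188.4 and 381.3 FPKM in KO 1 and KO 2, against 161.1 and 158.5 FPKM in WT 1 and WT 2. Among them Fn1, fibronectin, stood at 13.86 and 29.04 FPKM in KO 1 and KO 2, against 9.80 and 10.80 FPKM in WT 1 and WT 2 (adjusted p = 0.395). Of the neutrophil markers, the collagenase gene Mmp8 stood at 205.3 and 279.3 FPKM in KO 1 and KO 2, against 100.9 and 130.5 FPKM in WT 1 and WT 2 (adjusted p = 0.296), and the chemokine receptor gene Cxcr2 at 53.02 and 107.3 FPKM in KO 1 and KO 2, against 26.01 and 30.84 FPKM in WT 1 and WT 2 (adjusted p = 0.340). Dendritic cell markers, summed over 10 genes, stood at 165.1 and 192.4 FPKM in KO 1 and KO 2, against 133.8 and 104.5 FPKM in WT 1 and WT 2. Among them Bst2, also induced by interferon, and Siglech, a lectin of plasmacytoid dendritic cells, had log2 changes of 0.68 and 0.51 (adjusted p = 0.351 and 0.383). The part of monocyte, neutrophil and dendritic cell transcripts in these values was not tested.

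Genes of heme and iron handling gave no call. Of 24 listed 20 were tested, 0 passed in either direction, and 14 had a log2 change below 0, a share near the 61.7% of all genes, with a median of -0.21. Hp, given above, had a log2 change of 1.26. Tfrc, the transferrin receptor of dividing and erythroid cells, stood at 53.63 and 49.16 FPKM in KO 1 and KO 2, against 79.84 and 83.06 FPKM in WT 1 and WT 2 (log2 change -0.66, adjusted p = 0.295, limma). Blvrb, a biliverdin reductase that erythroid cells also make, stood at 18.79 and 21.77 FPKM in KO 1 and KO 2, against 43.06 and 29.19 FPKM in WT 1 and WT 2 (adjusted p = 0.348). Ireb2, an iron-sensing regulator of mRNAs, stood at 10.10 and 10.74 FPKM in KO 1 and KO 2, against 12.57 and 12.88 FPKM in WT 1 and WT 2 (adjusted p = 0.457). Among 13 tested regulators of heme and oxidant sensing 0 passed, 9 had a log2 change above 0 and the median was 0.18. For comparison, 61.7% of all genes tested had a log2 change below 0. Spi1, which encodes PU.1, stood at 72.59 and 109.5 FPKM in KO 1 and KO 2, against 56.12 and 48.98 FPKM in WT 1 and WT 2 (adjusted p = 0.370), with both KO libraries above both WT libraries, where those of Spic lay below. Mafg, a small Maf partner of BACH1 and NRF2, stood at 17.60 and 25.33 FPKM in KO 1 and KO 2, against 13.66 and 11.87 FPKM in WT 1 and WT 2 (adjusted p = 0.370). Cebpb, a myeloid transcription factor, stood at 67.91 and 124.5 FPKM in KO 1 and KO 2, against 44.01 and 37.42 FPKM in WT 1 and WT 2 (adjusted p = 0.345). Gclc, of glutathione synthesis, stood at 42.39 and 23.77 FPKM in KO 1 and KO 2, against 55.47 and 65.44 FPKM in WT 1 and WT 2 (adjusted p = 0.372).

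Other complement genes mostly had positive log2 changes, without a call. Of 18 listed 9 were tested, 0 passed, 7 had a log2 change above 0 and the median was 0.28. Over all genes tested, 61.7% had a log2 change below 0. All 16 neutrophil markers had one above 0, and the part of neutrophil transcripts in the complement values was not tested. C5ar1, the C5a receptor of neutrophils and monocytes, stood at 36.11 and 54.34 FPKM in KO 1 and KO 2, against 18.96 and 21.17 FPKM in WT 1 and WT 2 (log2 change 1.11, adjusted p = 0.293, limma). Itgam, a chain of complement receptor 3, stood at 39.22 and 68.86 FPKM in KO 1 and KO 2, against 25.94 and 27.85 FPKM in WT 1 and WT 2 (adjusted p = 0.370). C3, the central complement protein, stood at 145.8 and 337.0 FPKM in KO 1 and KO 2, against 107.5 and 102.4 FPKM in WT 1 and WT 2 (adjusted p = 0.395). Cd59a, which blocks the membrane attack complex, stood at 0.66 and 1.5 FPKM in KO 1 and KO 2, against 2.27 and 1.88 FPKM in WT 1 and WT 2 (adjusted p = 0.439). Of the partner proteases of C1q, C1ra stood between 0.70 and 1.24 FPKM and C1s1 between 0 and 0.15 FPKM.

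Erythroid transcripts had the same highest and lowest libraries as the 10 macrophage genes of the list. Of 14 erythroid markers 13 were tested, 0 passed, all 13 had a log2 change below 0, 11 had both KO libraries below both WT libraries, and the median was -0.83. Over all genes tested, 61.7% had a log2 change below 0 and 31.7% had both KO libraries below both WT libraries. Their sum was 507.7 and 826.6 FPKM in KO 1 and KO 2, against 1617 and 995.6 FPKM in WT 1 and WT 2, with no marker at 0 in all libraries. Hba-a1, an alpha globin gene with a near-identical copy between which reads may be split, stood at 110.7 and 213.4 FPKM in KO 1 and KO 2, against 450.5 and 273.1 FPKM in WT 1 and WT 2. Ermap, an erythroid membrane protein, stood at 11.43 and 17.54 FPKM in KO 1 and KO 2, against 32.20 and 21.47 FPKM in WT 1 and WT 2 (adjusted p = 0.372, limma). WT 1 was the highest and KO 1 the lowest library for 12 of the 13, the same extremes as for the 10 macrophage genes, beside 6.28% of all genes tested. Of the other macrophage genes, 6 of the 15 tested shared these extremes, Siglec1 among them, which is also above the 6.28% of all genes. Summed over 22 genes, the other macrophage genes stood at 218.8 and 399.4 FPKM in KO 1 and KO 2, against 321.1 and 232.1 FPKM in WT 1 and WT 2. Most of the KO 2 sum came from Mpeg1 (152.65 FPKM), Sirpa (71.12 FPKM) and Cd68 (52.03 FPKM), which do not share these extremes. Of 12 genes of contact with erythroblasts and clearance of their nuclei, Icam4 was at 0 FPKM in every library. In this list 10 genes were tested and 0 passed. Of these 9 had a log2 change below 0, 5 had both KO libraries below both WT libraries, and the median was -0.18. Among these, the adhesion protein gene Maea stood at 55.45 and 51.96 FPKM in KO 1 and KO 2, against 53.00 and 51.44 FPKM in WT 1 and WT 2. Itgav, an integrin chain of macrophages, stood at 3.50 and 3.58 FPKM in KO 1 and KO 2, against 4.4 and 4.72 FPKM in WT 1 and WT 2 (adjusted p = 0.461), and Itga4, the integrin chain that binds VCAM1, stood at 34.86 and 28.43 FPKM in KO 1 and KO 2, against 35.00 and 41.49 FPKM in WT 1 and WT 2 (adjusted p = 0.525). Mfge8, a bridge between dying cells and phagocytes, stood at 4.06 and 2.52 FPKM in KO 1 and KO 2, against 4.22 and 4.28 FPKM in WT 1 and WT 2 (adjusted p = 0.539). Klf1, an erythroid transcription factor that is also among the erythroid markers, stood at 16.67 and 18.84 FPKM in KO 1 and KO 2, against 39.42 and 21.90 FPKM in WT 1 and WT 2 (adjusted p = 0.423). Whether macrophages, erythroblasts or both entered the sort in unequal amounts was not tested.

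**Figure D4:**
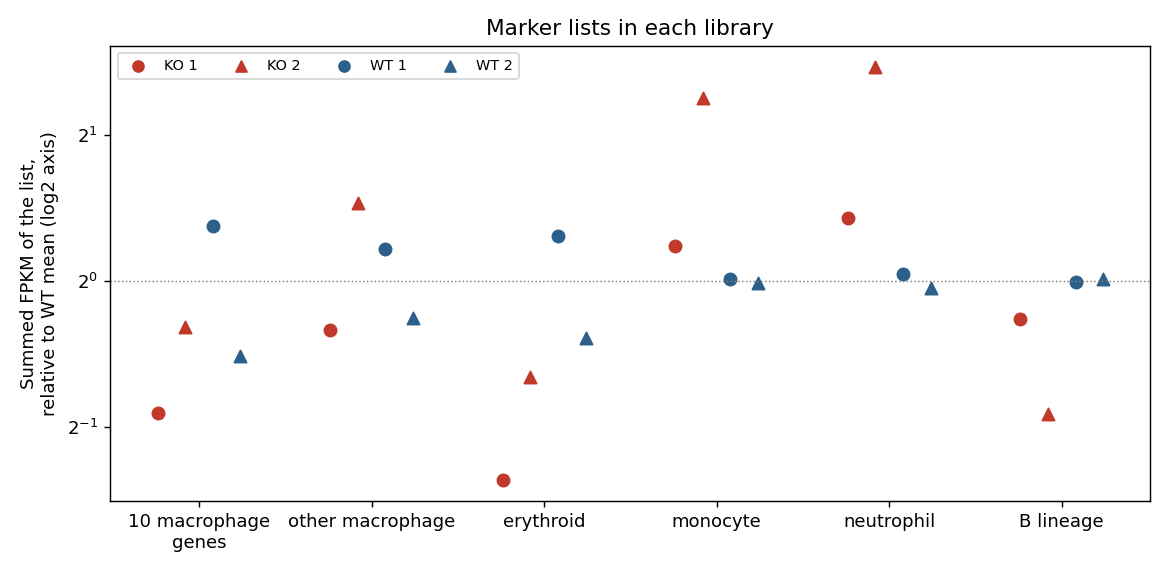
Summed FPKM of each marker list in each library, relative to the mean of WT 1 and WT 2 (log2 axis); circles are KO 1 and WT 1, triangles KO 2 and WT 2, red KO and blue WT. The 10 macrophage genes and the erythroid markers share WT 1 as highest and KO 1 as lowest, while neutrophil and monocyte markers are highest and B-lineage markers lowest in KO 2. The sum of the other macrophage genes is highest in KO 2 and lowest in KO 1.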

How the data were processed

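RNA of sorted marrow B cell precursors was sequenced in 4 libraries, 2 labelled ADAR1 KO and 2 wild type. Per the file headers, the authors deposited FPKM for each gene and library, to 2 decimals. Per the submitters' processing notes the genome build was mm9. Aligner, counter, strand and annotation were not stated. Symbols matched 55394 of 55573 identifiers, and coordinates are GRCm38 positions of GENCODE M21. With the union exon lengths of that annotation, between 99.5% and 99.7% of low FPKM values fell on whole fragments within 0.15, where chance gives 30%. These steps gave the fragment estimates, which cover counting error only.

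KO was compared with WT on log2(FPKM + 1) by limma 3.58.1 under R 4.3.3, with the trend option, over the 13281 genes whose group mean reached 1 FPKM in KO or WT. The Benjamini-Hochberg threshold was 0.05. The fit was checked for the sign of changes added to simulated libraries that had the WT spread in both groups. The KO libraries differed more from each other (SD of the log2 difference 0.487 for KO and 0.322 for WT), so this check does not vouch for the calls. Log2 changes on this scale understate those of low genes. Alternatives were another pseudocount, other filters and scalings, voom, blocks, and each library left out. Members and lists were chosen with earlier results of these data known. Named genes are the 10 members, the lowest p-values of each list (up to 4 genes, 2 for markers), and the 5 nearest to C1qa. The ratios to C1q and the genes Maea, Icam4, Hba-a1, C1ra, C1s1, Cxcl12, Pdgfra, Lepr, Emcn, Stab2, Eng, Mertk, Axl, Cd68, Fcgr1 and Mpeg1 were chosen after their values were seen. Ahsp was not analysed here.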

Additional observations from a re-analysis of the deposited data

How the results depend on the processing

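Of 119 log2 changes of the macrophage genes under alternative settings, 111 kept their direction and side of the threshold. That count overstates stability, because filters and blocks cannot move a log2 change with 2 libraries in each group. For those settings only the side of the threshold could change. The direction turned 7 times, in 5 genes, each time with 1 library left out. Over the 4 such fits the log2 change ran from -0.78 to 0.11 for C1qa, -0.74 to 0.10 for C1qb, -0.71 to 0.16 for C1qc, -0.70 to 0.28 for Slc40a1 and -0.74 to 0.10 for Adgre1. Cd163, Hmox1, Spic, Vcam1 and Mrc1 stayed below 0 in every setting in which they were tested (for Cd163 between -1.46 and -0.74, adjusted p from 0.0386 to 0.980 in limma), and Spic was under the stricter filter of 5 FPKM. The summed level gave a log2 ratio from -0.96 to -0.07 with 1 library left out and -0.40 without Vcam1, Hmox1 and Spic. The count of all genes called, 27 in the reported fit, was 15 with a pseudocount of 0.1, 0 with no filter, 9 with voom and 0 to 948 with 1 library left out (0 without KO 2, 948 without KO 1). With no filter 2257 genes had an unadjusted p under 0.05, and without KO 2 there were 1969. The labels do not say whether libraries with the same number were paired. The same-numbered deviations correlated at -0.15 over genes, which cannot decide this with 2 libraries a group. The replicate block gave 68 calls and 0 of the 10 genes. The crossed pairing, added after seeing the data, gave 213 calls and 1 of the 10 genes (Cd163). At an unadjusted p under 0.05 in limma, the replicate block had 2 of the 10 genes and the crossed pairing 5. The cause of these differences was not tested. The fewest estimated fragments behind a value of the 10 genes were 79, for Spic in KO 1.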
